A study of Rattus norvegicus with 6 samples.

Results

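The lysosome and autophagy genes described here are 32 rat genes listed by symbol, of which 31 had at least 1 probe whose transcript accession maps to that symbol in the RefSeq gene table. Those 31 genes carried 57 of the 27460 probes that received a gene symbol, and they stand among 15284 genes with a probe. All 31 were detected and tested, and Tfe3, the close relative of the transcription factor Tfeb, was the member with no matched probe. The rats were males of the Sprague-Dawley stock Crl:CD(SD), bought at 5 weeks of age, and whole renal cortex was the tissue measured as total RNA. Of these, 3 rats received water for 4 weeks and 3 received nitrilotriacetic acid trisodium monohydrate (NTA), a metal-chelating aminopolycarboxylate, at 1000 mg/kg/day over those 4 weeks. Each rat was measured on 1 single-colour Agilent array, and the series calls the animals biological replicates. All 6 shared the basal diet and tap water.

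Lysosomes are acidic organelles in which hydrolases degrade material taken up by endocytosis or delivered by autophagy. Proximal tubule cells of the renal cortex are rich in them, because they reabsorb and digest filtered protein. In macroautophagy, the ULK1 kinase and the Beclin 1 lipid kinase complex start a membrane, an ATG5- and ATG7-dependent conjugation system attaches LC3 and GABARAP proteins to it, and cargo receptors bind these proteins. Retreg1 (also called Fam134b) is such a receptor for sheets of the endoplasmic reticulum. The transcription factors TFEB and TFE3 bind E-box letters in promoters of many lysosomal genes.

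The E-box core that TFEB binds, CACGTG, was searched in RefSeq promoter windows on build GRCr8, which reach from 250 bases before to 50 bases after each annotated start. Of the 32 members, 27 had a window in that table. The core is palindromic, so 1 search covers both strands. It occurred in 6 of these 27 windows (Lamp1, Ctsd, Gaa, Glb1, Mcoln1 and Atg5), which is 22.2%, and in 6.42% of all 33469 windows. The longer letters GTCACGTG, which contain the core, occurred on either strand in 5 of the 27 windows (18.5%) and in 1.85% of all windows. The stretches below are shown because they hold the core near the start of a lysosomal gene, and the Retreg1 stretch because Retreg1 has the largest difference of the members. Each is read 5′ to 3′ on the gene's own strand, with CACGTG in capitals.
Lamp1, chr16:83075084-83075263, minus strand: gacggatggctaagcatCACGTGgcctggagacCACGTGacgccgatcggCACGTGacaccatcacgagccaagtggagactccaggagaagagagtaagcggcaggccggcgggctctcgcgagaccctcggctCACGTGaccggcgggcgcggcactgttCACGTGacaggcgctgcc
Ctsd, chr1:206968822-206968851, minus strand: tccgcccctcgcccgcgtctCACGTGaccc
Gaa, chr10:105028268-105028313, plus strand: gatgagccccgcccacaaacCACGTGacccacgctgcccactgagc
Mcoln1, chr12:6358216-6358257, plus strand: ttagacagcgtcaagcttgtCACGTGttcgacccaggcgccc
Retreg1, chr2:78065924-78066123, plus strand: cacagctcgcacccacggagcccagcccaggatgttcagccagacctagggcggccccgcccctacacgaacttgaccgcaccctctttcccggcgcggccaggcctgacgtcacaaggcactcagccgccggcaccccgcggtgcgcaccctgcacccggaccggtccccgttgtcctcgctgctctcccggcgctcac
Lamp1 held 5 copies of the core between 183 and 38 bases before its start, the most of any member, and Ctsd and Mcoln1 held 2 each. In the Retreg1 window the core was absent.

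The arrays resembled each other closely. Of the 61657 non-control probes, 68.4% to 73.5% passed the scanner's test against background on each array, and pairs of arrays correlated across genes, which are not independent replicates, at 0.992 to 0.994 within groups and 0.990 to 0.993 between groups. Water 1 and NTA 2 shared 1 slide and 1 scan day. The other 4 arrays were scanned on another day, with water 2 and water 3 on 1 slide and NTA 1 and NTA 3 on another. Among these 4 arrays slide and treatment cannot be told apart, and the shared slide compares 1 rat with 1 rat. Markers of the cortex were present, since all 10 proximal tubule markers, among them Lrp2, Slc34a1 and Slc22a6, passed the filter on dim probes, and their median difference was -0.02. Single markers differed from that median: Ggt1, a glutathione-cleaving brush border enzyme, stood at 0.71 ± 0.21 with all NTA arrays above water, and Slc5a12, a lactate carrier, at -0.31 ± 0.11 with all NTA arrays below (adjusted p = 0.296 and 0.368). NTA 1 was the lowest of all 6 arrays for 3 of the 10 (Cubn, Slc22a6 and Slc5a12), a share not computed over all genes. The medians of 7 other marker lists, macrophages aside, lay between -0.11 (distal convoluted tubule, 1 gene tested) and 0.08 (fibroblast), with podocyte markers at -0.10 and 0 of 6 above 0. In such bulk tissue, fewer cells of a type and less RNA per cell cannot be told apart.

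Levels below are log2 of the processed signal relative to the 75th percentile of the same array, so a level of 0 equals that percentile. A difference is the mean log2 level in NTA minus that in water, with the standard error (SE) from limma fitted to 11965 genes. Adjusted p-values are Benjamini-Hochberg values over all these genes, and a gene was called where the adjusted p lay below 0.05. None of the 31 members was called, beside 0.0752% of all genes (9 of 11965). At an unadjusted p under 0.05 there were 4 members (Retreg1, Ctsh, Lamp2 and Hexa), or 12.9%, beside 12.3% of all genes, so their share was near the background. All 4 were lower in NTA and 0 were higher, beside 4.51% of all genes lower and 7.76% higher.

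Retreg1, the receptor that clears endoplasmic reticulum sheets, was the member with the largest difference and the smallest p. Its levels were 2.64, 2.84 and 2.93 in water 1, 2 and 3, and 2.10, 2.12 and 2.08 in NTA 1, 2 and 3. All NTA arrays lay below all water arrays, and the NTA arrays lay closer together (SD 0.02, n = 3) than the water arrays (SD 0.15, n = 3). The difference was -0.70 ± 0.09 (SE), which is 38.6% lower in NTA, with a 95% interval from -0.92 to -0.49. Its adjusted p of 0.0937 missed the threshold, although by unadjusted p Retreg1 stood at place 27 of the 11965 genes. Like the other members, Retreg1 was listed with earlier results of these data known.

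A second, dimmer Retreg1 probe gave a like value. Its levels were 1.02, 1.14 and 0.99 in water 1, 2 and 3, and 0.46, 0.27 and 0.48 in NTA 1, 2 and 3. The groups again did not overlap, and the difference was -0.65 ± 0.08. With limma run on each of 20739 probes on its own, an analysis added after the data had been seen, both probes had an adjusted p of 0.0815, where 0.145% of probes (30 of 20739) were called. For the brighter probe the difference was -0.52 within the shared slide and -0.80 among the other 4 arrays. For the dimmer probe these values were -0.75 and -0.60. When variances were modelled with a trend and robustly, Retreg1 was called (adjusted p = 0.0375), and over all alternatives its adjusted p ran from 0.0375 to 0.36.

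**Figure D1:**
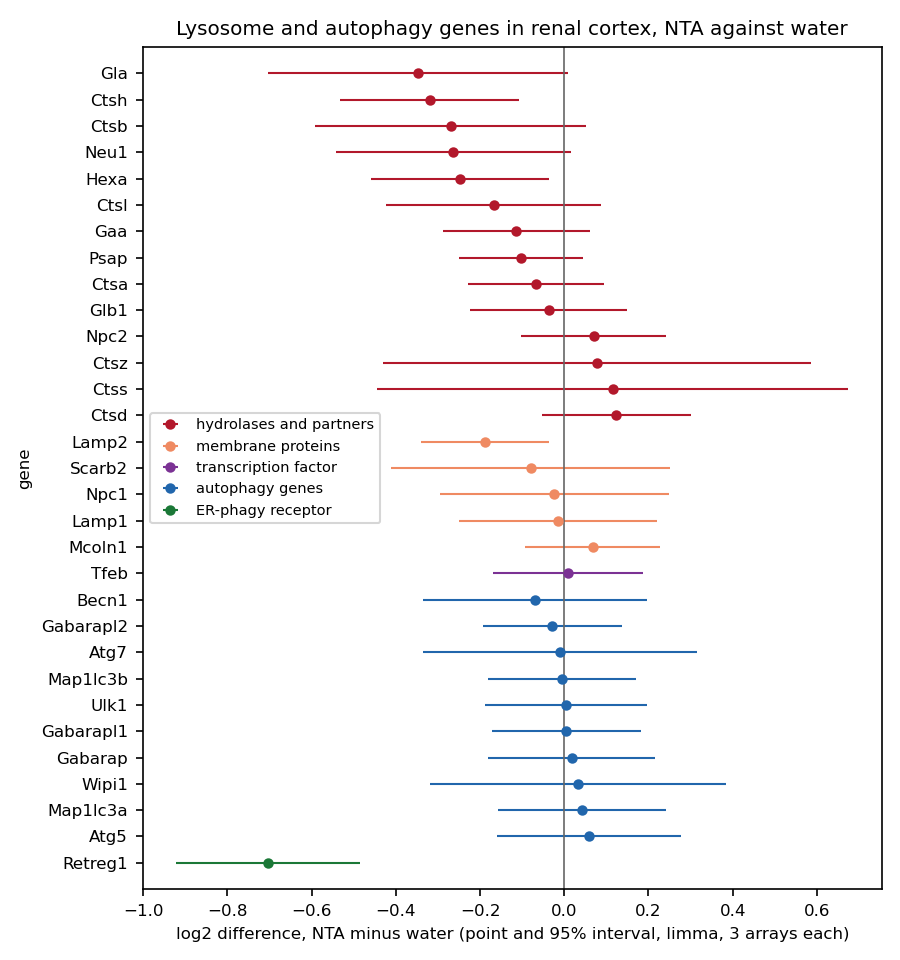
Log2 difference of each tested member, NTA minus water (point), with its 95% interval from limma (line) over 3 arrays per group, coloured by role. Retreg1 at -0.70 lies apart from the other members, hydrolases spread from -0.35 to 0.12, and the 10 autophagy genes lie between -0.07 and 0.06.

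The lysosomal hydrolases and their soluble partners, 14 members, were mostly lower in NTA by small amounts. Of them, 10 had a difference below 0 and 4 above, with a median of -0.11 beside 0.02 over all genes tested, and none was called. All NTA arrays lay below all water arrays for 5 of the 14 (Ctsh, Hexa, Gla, Neu1 and Psap), or 35.7%, beside 7.23% of all genes. The opposite order held for 1 of the 14 (Ctsd), or 7.14%, beside 13.0% of all genes. Taken within the shared slide, the hydrolase median was -0.13, and taken among the other 4 arrays it was -0.11. These counts depend on the scaling: 9 of the 14 lay lower with no overlap under quantile normalization and 2 under normexp background correction, beside 9.79% and 7.19% of all genes.

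The cathepsins, which are the lysosome's main proteases, differed in direction among themselves. Ctsh, an aminopeptidase of the papain family, had levels of 7.12, 6.96 and 7.02 in water 1, 2 and 3, and 6.57, 6.76 and 6.80 in NTA 1, 2 and 3. These groups did not overlap, and the difference was -0.32 ± 0.09 (19.9% lower, adjusted p = 0.277). For Ctsb, the abundant cysteine protease cathepsin B, levels were 8.58, 8.54 and 8.44 in water and 7.99, 8.46 and 8.30 in NTA, in the same order of animals. Here NTA 1 was the lowest array and NTA 2 lay within the water range, with a difference of -0.27 ± 0.13 (adjusted p = 0.473). Without NTA 1 the Ctsb difference was -0.14.

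Ctsl, cathepsin L, resembled Ctsb in its order of arrays, with 6.98, 6.89 and 6.83 in water and 6.57, 6.91 and 6.71 in NTA, and differed by -0.17 ± 0.10 (adjusted p = 0.562). It stood at -0.09 without NTA 1 and at -0.26 without NTA 2. Its second probe gave -0.26 ± 0.08. The 3 probes of Ctsa, the carboxypeptidase that protects Neu1 and Glb1 in a shared complex, gave -0.07, -0.14 and -0.17, the brightest being the smallest in size. Ctsd, the aspartic protease cathepsin D, went the other way, with levels of 6.52, 6.53 and 6.37 in water and 6.54, 6.65 and 6.60 in NTA. All its NTA arrays lay above all water arrays by a small margin, and the difference was 0.12 ± 0.07 (adjusted p = 0.543), or 0.07 without water 3. Under quantile normalization and under normexp the Ctsd difference was 0.051 and 0.049, and the groups overlapped.

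Among the glycosidases and their cofactors, all 6 differences were below 0. Hexa, the alpha subunit of beta-hexosaminidase that degrades GM2 ganglioside, had levels of 3.93, 3.81 and 3.999 in water and 3.57, 3.64 and 3.78 in NTA, in order of animal number. The groups did not overlap, by a margin of hundredths, and the difference was -0.25 ± 0.09 (15.7% lower, adjusted p = 0.353). Gla, alpha-galactosidase A, was dim but well above background on all arrays, at -2.94, -2.96 and -3.04 in water and -3.61, -3.31 and -3.06 in NTA. Its NTA arrays spread widely (SD 0.28) and NTA 3 almost met the water range, with a difference of -0.35 ± 0.14 (adjusted p = 0.417) that was -0.20 without NTA 1.

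Neu1, the lysosomal sialidase, had levels of 2.82, 2.65 and 2.67 in water and 2.25, 2.48 and 2.63 in NTA. Its groups did not overlap, NTA 1 was again the lowest array, and both of its probes agreed, at -0.26 ± 0.11 and -0.23 ± 0.11 (adjusted p = 0.428 for the brighter). The brighter stood at -0.16 without NTA 1. The 3 proximal tubule markers that were also lowest in NTA 1 are named above, and the part of that animal's tissue in these values was not tested. Psap, the precursor of the saposins that help glycosidases reach their lipids, was lower on every NTA array by a small amount (-0.10 ± 0.06, adjusted p = 0.547). Gaa, the acid alpha-glucosidase that degrades glycogen, stood at -0.11 ± 0.07 with overlapping groups, and at -0.07 without water 1. For Glb1, the beta-galactosidase, the difference was -0.04 ± 0.08, and its other probe stood at 0.04. Npc2, the soluble cholesterol carrier that hands cholesterol to Npc1, stood at 0.07 ± 0.07.

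**Figure D2:**
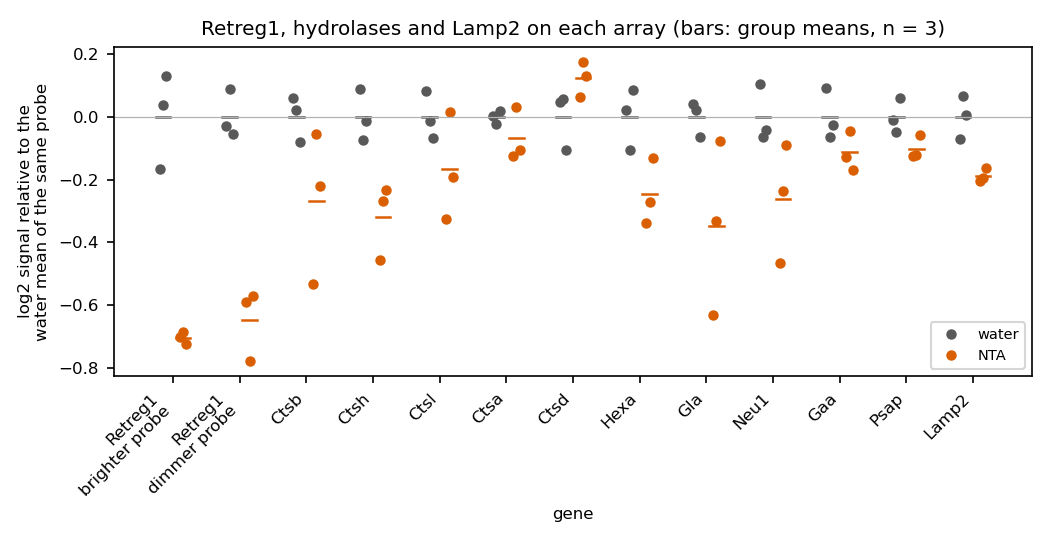
Log2 signal on each of the 6 arrays, set to the water mean of the same probe (y axis), with group means as bars (n = 3 per group). Shown are both Retreg1 probes, Lamp2 and the hydrolases and partners Ctsb, Ctsh, Ctsl, Ctsa, Ctsd, Hexa, Gla, Neu1, Gaa and Psap. Of those not drawn, Ctss, Ctsz and Npc2 had differences above 0 and Glb1 below. Both Retreg1 probes show separate groups. NTA 1 is the lowest array for Ctsb, Ctsh, Ctsl, Ctsa, Hexa, Gla, Neu1, Psap and Lamp2, while Ctsd lies above water.

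Signal strength was looked at beside these values, since 11 of the 14 hydrolases lie among the 2992 genes of highest signal. Over those 2992 genes the median difference was 0.04, with 6.62% of genes lower and 22.1% higher with no overlap. Under quantile normalization their median was -0.0074, and that of the hydrolases was -0.16. The part of signal strength in the hydrolase values was not tested.

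Ctss and Ctsz are the cathepsins S and Z, which antigen-presenting cells and macrophages hold in quantity. Their spread among the NTA arrays (SD 0.46 and 0.37) was larger than their difference between the groups. Ctss had levels of 2.58, 2.67 and 2.51 in water 1, 2 and 3, and 2.99, 2.18 and 2.94 in NTA 1, 2 and 3. NTA 2 was thus the lowest of all 6 arrays while NTA 1 and NTA 3 were the highest, and the difference was 0.12 ± 0.23 (adjusted p = 0.873). Ctsz had levels of -0.89, -0.73 and -1.11 in water and -0.71, -1.25 and -0.54 in NTA, with NTA 2 again lowest (0.08 ± 0.21, adjusted p = 0.915). NTA 2 also differs from NTA 1 and NTA 3 in slide and scan day, so animal, slide and scan day cannot be told apart.

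Most macrophage markers shared with these 2 genes the low place of NTA 2, which was the lowest NTA array for 9 of 10, Mrc1 being the exception. How often NTA 2 was the lowest NTA array over all genes was not computed. The markers' summed level, as linear signal relative to the 75th percentile, was 105, 124 and 114 in water 1, 2 and 3, and 153, 109 and 169 in NTA 1, 2 and 3. Lyz2, the lysozyme of macrophages, made up 70.1% to 78.5% of that sum on each array. The other 9 markers summed to 30.1, 37.3 and 27.8 in water and 38.0, 23.3 and 42.9 in NTA, with NTA 2 again lowest. Of the 12 listed markers 10 were tested, 8 had a difference above 0 and none had an unadjusted p under 0.05, and every one of the 12 had a probe well above background on some array. Cd68, a lysosomal membrane glycoprotein of macrophages, stood at 0.94, 1.17 and 0.63 in water and 1.30, 0.51 and 1.46 in NTA, where NTA 2 was again lowest. The part of macrophage content in the Ctss and Ctsz values was not tested. Without NTA 2, Ctss stood at 0.38 ± 0.08 (adjusted p = 0.329) and Ctsz at 0.29 ± 0.14 (adjusted p = 0.514). Within the shared slide, which holds NTA 2, the differences were -0.40 for Ctss and -0.36 for Ctsz, and among the other 4 arrays 0.37 and 0.30.

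**Figure D3:**
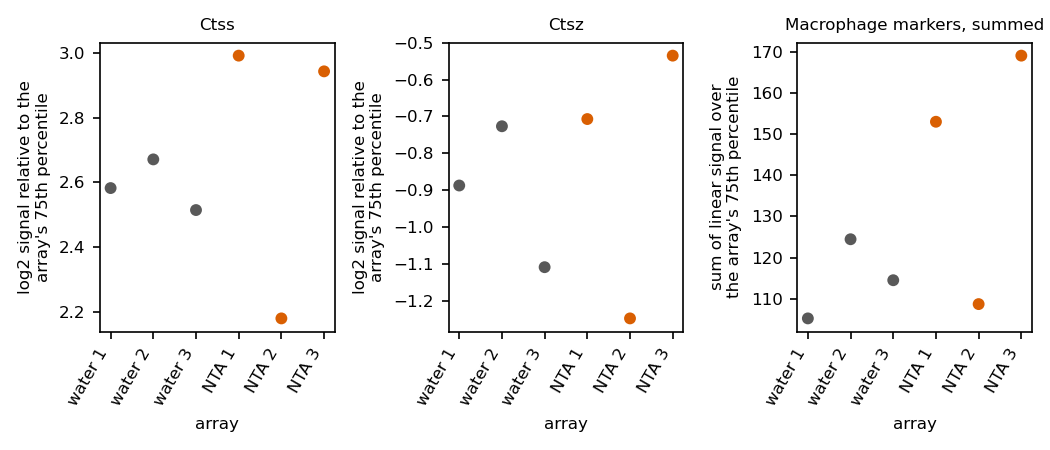
Log2 level of Ctss and Ctsz on each array and, in the right panel, the summed linear level of 10 macrophage markers (each dot is 1 array). In all 3 panels NTA 2 lies below NTA 1 and NTA 3.

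The membrane proteins, 5 members, had a median difference of -0.02, with 4 below 0 and none called. Lamp2, a heavily glycosylated protein of the lysosomal membrane that serves in chaperone-mediated autophagy and in fusion with autophagosomes, was the one member of this group whose arrays did not overlap. Its levels were 2.66, 2.80 and 2.74 in water and 2.53, 2.54 and 2.57 in NTA. The difference was -0.19 ± 0.06 (12.2% lower, 95% interval -0.34 to -0.04, adjusted p = 0.343). Its structural relative Lamp1 did not share this, with levels from 5.78 to 6.01 in water and from 5.81 to 6.03 in NTA and a difference of -0.01 ± 0.10. Scarb2, the receptor that carries glucocerebrosidase to lysosomes, stood at -0.08 ± 0.13, and NTA 3 alone lay below its water range. Mcoln1, the calcium and iron channel of lysosomes, stood at 0.07 ± 0.07.

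Npc1, the membrane protein that exports cholesterol from lysosomes, had 7 probes that did not agree. The brightest stood at -0.02 ± 0.11, with NTA 2 lowest, and the other 6 ran from -0.27 to 0.38. The 3 probes at the extremes were also the dimmest, at mean signals of 32.6 to 48.2, against 3048 for the brightest.

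The autophagy genes showed no difference that the arrays could resolve. All 10 had differences between -0.07 and 0.06, with a median of 0.00459, 6 above 0 and 4 below. None was called, none had an unadjusted p under 0.05, and for none did the groups separate. Their 95% intervals lay between -0.34 and 0.39, so changes within that range are not excluded for single genes.

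Ulk1, the kinase that starts autophagy, had levels of 3.68, 3.51 and 3.49 in water and 3.63, 3.49 and 3.57 in NTA (0.0042 ± 0.08). Becn1, the scaffold of the lipid kinase complex, stood at -0.07 ± 0.11, with NTA 2 lowest at 1.63 beside 1.87 to 2.00 on the other arrays. Wipi1, which binds the lipid that this kinase makes, stood at 0.03 ± 0.14. In the conjugation system, Atg7, the activating enzyme, stood at -0.01 ± 0.13, and Atg5, which joins Atg12 to form the ligase, at 0.06 ± 0.09.

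The Atg8 family, the ubiquitin-like proteins attached to the membrane, was read by 13 probes for 5 genes. Map1lc3a stood at 0.04 ± 0.08, Map1lc3b at -0.0060 ± 0.07 and Gabarap at 0.02 ± 0.08. Gabarapl1 stood at 0.0050 ± 0.07, with NTA arrays at 7.50, 7.50 and 7.51 inside the water range of 7.41 to 7.61. Gabarapl2 stood at -0.03 ± 0.07. Over all 13 probes the differences ran from -0.05 to 0.07. Under quantile normalization Gabarapl1 stood at -0.10 and under normexp at -0.11, so its sign depends on the scaling, and under normexp all its NTA arrays lay below all water arrays.

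Tfeb, the transcription factor that drives many lysosomal genes, had levels of -0.50, -0.69 and -0.53 in water and -0.56, -0.60 and -0.54 in NTA. The NTA arrays lay within the water range, at 0.0096 ± 0.07 (adjusted p = 0.972), while its dimmer probe stood at 0.23 ± 0.15. The 6 members with the E-box core in their window stood at 0.12 (Ctsd), 0.07 (Mcoln1), 0.06 (Atg5), -0.01 (Lamp1), -0.04 (Glb1) and -0.11 (Gaa), with a median of 0.02. The 20 tested members whose window lacks it had a median of -0.02 and ran from -0.70 (Retreg1) to 0.12 (Ctss). The remaining tested members had no window and stand in neither set. They were Ctsb (-0.27), Hexa (-0.25), Psap (-0.10), Becn1 (-0.07) and Map1lc3a (0.04).

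**Figure D4:**
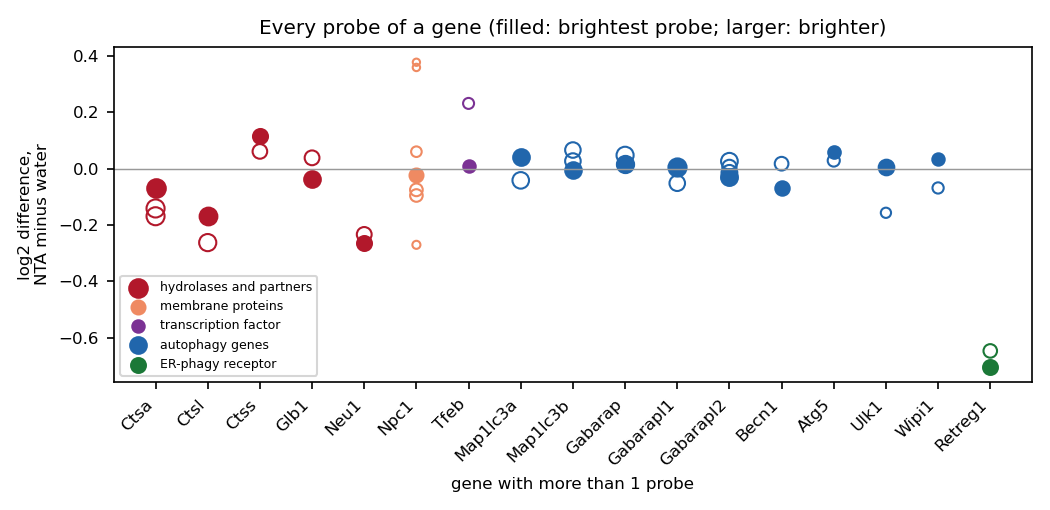
Log2 difference, NTA minus water, of every probe of the 17 members with more than 1 probe (filled circle, the brightest probe, used for the gene; larger circles are brighter probes). Both Retreg1 probes lie at -0.65 or lower, the Atg8 family probes lie near 0, and the 7 Npc1 probes run from -0.27 to 0.38.

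Agreement between probes was also read. Probes of 1 gene read the same 6 RNA samples, so their agreement is no check on differences between animals. How often the probes of a gene share a sign over all genes was not computed. Of the 17 members with more than 1 probe, 8 had all probes on 1 side of 0. They were Ctsa, Ctsl, Neu1 and Retreg1 below 0, and Ctss, Tfeb, Gabarap and Atg5 above. The other 9, among them 7 autophagy genes, had probes on both sides of 0. Of the 57 member probes, 56 were well above background on all 6 arrays, and none was saturated or marked as an outlier on any array.

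Further genes of the same organelles gave the wider setting, and 0 of 151 tested genes were called. Their lists were taken from general knowledge, with earlier results of these data known. At an unadjusted p under 0.05 there were 7 higher and 11 lower, or 11.9% in all, near the background of 12.3%. Among 38 further hydrolases and their helpers, 12 were above 0, beside 56.4% of all genes, and the median was -0.07. An unadjusted p under 0.05 was found for 3, all of them lower, or 7.89% beside the 12.3% of all genes. All NTA arrays lay below all water arrays for 4 of the 38, or 10.5%, beside 7.23% of all genes. The opposite order held for 0, beside 13.0%. These counts too depend on the scaling: 7 lay lower with no overlap under quantile normalization, beside 9.79% of all genes, and 6 under normexp, beside 7.19%. The summed linear level of the 38, relative to the 75th percentile, was 673 to 689 in water and 625 to 650 in NTA. NTA 1 was the lowest of all 6 arrays for 14 of the 38. It was so for 6 of 29 further autophagy genes, 5 of 18 V-ATPase subunits and 3 of 27 further membrane proteins. For TFEB regulation the count was 2 of 20 and for cargo receptors 2 of 19. The share over all genes was not computed. Lgmn, the asparagine-specific protease legumain that matures cathepsins, was the lowest in p, with levels of 6.22, 6.18 and 6.15 in water and 5.79, 5.81 and 5.96 in NTA (-0.33 ± 0.07, adjusted p = 0.218). Its groups did not overlap. In the other direction Galns, a sulfatase, stood at 0.30 ± 0.16 from a dim probe.

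The remaining lists had medians between -0.0025 and 0.09. All NTA arrays lay below all water arrays for 4 of 18 V-ATPase subunits (22.2%), beside 7.23% of all genes. That share was 10.3% for further autophagy machinery, 5.26% for cargo receptors, 5% for TFEB regulation and 3.70% for further membrane proteins. The opposite order held for 1 V-ATPase subunit and for 3 genes in each other list, beside 13.0% of all genes. Among 27 further membrane proteins and sorting receptors, Vps39, a tethering subunit, stood at 0.27 ± 0.05 and Laptm4b at -0.26 ± 0.07. Among 18 subunits of the V-ATPase, the proton pump that acidifies lysosomes, Atp6v0a1 stood at 0.24 ± 0.08 and Atp6v1d at -0.20 ± 0.07. Of 20 genes around TFEB regulation, Lamtor2 stood at 0.16 ± 0.06 and Ppargc1a, a transcriptional coactivator, at -0.28 ± 0.08. Among 29 further genes of the autophagy machinery, Pik3c3, the lipid kinase itself, stood at 0.19 ± 0.07 and Uvrag at -0.18 ± 0.06. None of these passed the test, with adjusted p from 0.216 to 0.361.

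Retreg1 was set beside the 19 tested cargo and endoplasmic reticulum receptors, which had a median of 0.09 and 12 members above 0. Cdk5rap3, a subunit of the ligase that marks the endoplasmic reticulum with UFM1, stood at 0.28 ± 0.07 (adjusted p = 0.25), and Nbr1, a receptor of ubiquitinated cargo, at -0.16 ± 0.08. Other receptors of endoplasmic reticulum turnover, chosen for naming after their values were seen, were Calcoco1 (0.16 ± 0.09), Tex264 (0.09 ± 0.06, with every NTA array above water), Rtn3 (0.09 ± 0.07), Retreg3 (0.09 ± 0.09), Atl3 (0.11 ± 0.10) and Ccpg1 (-0.06 ± 0.08). None of these 6 approached the size of the Retreg1 difference, and the contrast between them and Retreg1 was not tested. Retreg2, Sec62 and Calcoco2, also on that list, had no probe matched to their symbol. Sqstm1, the cargo receptor p62 and a known NRF2 target, also named after its values were seen, had levels of 4.57, 4.60 and 4.55 in water and 4.76, 4.75 and 4.94 in NTA. All its NTA arrays lay above all water arrays, at 0.25 ± 0.07 (adjusted p = 0.304).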

How the data were processed

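RNA from 3 water and 3 NTA renal cortices was hybridised as Cy3-labelled cRNA, 1 array per rat, per the labels' protocols. Agilent Feature Extraction read the scans (version 10.7.1.1 per the file headers, 10.7 per the submitters' processing notes). The deposited intensity used is its processed signal, on a linear scale that was not scaled between arrays. The authors' deposited value table is a ratio, that signal over 1 constant per array within 0.0718% of its 75th percentile (column medians 0.110 to 0.115).

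Here each array's non-control probes were expressed as log2 signal less the log2 of that array's 75th percentile. Outlier-marked spots were left out. A probe was kept if well above background on all 3 arrays of a group, and the brightest kept probe stood for its gene. Probes were named by transcript accession through the RefSeq table of GRCr8, and 34197 stayed unnamed. The array design rests on another build, so no probe coordinates are given. NTA was compared with water by limma 3.58.1 (R 4.3.3, lmFit, eBayes, two-sided). The fit was also run on simulated arrays with independent noise and no slide or scan-day effect. Their planted differences were larger than that of any member, so this run does not test the setting of these data. The members and lists were chosen with earlier results of these data known. All 32 members are named. Of each further list, genes past the threshold and the gene of smallest p in each direction are named. Marker lists for 9 cell types were measured. The number of arrays limits the precision. Same-numbered rats are not a labelled pair, and the deviations of same-numbered arrays correlated at 0.07, -0.09 and 0.04, so no pairing was used. In all, 17 alternatives were run, with the median spot and background signals for normexp.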

Additional observations from a re-analysis of the deposited data

How the results depend on the processing

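Retreg1 kept its direction in all 17 alternatives, as did Ctsb, Ctsd, Ctsh, Ctsl, Hexa, Gla, Gaa, Neu1, Psap and Lamp2. Their size was less stable: with 1 array left out, Ctsb ran from -0.38 to -0.14, Ctsl from -0.26 to -0.09, Gla from -0.48 to -0.20, Neu1 from -0.35 to -0.16, Gaa from -0.15 to -0.07 and Ctsd from 0.07 to 0.15. Retreg1 ran from -0.79 to -0.64, Ctsh from -0.36 to -0.25, Hexa from -0.31 to -0.20, Psap from -0.13 to -0.07 and Lamp2 from -0.22 to -0.15. Retreg1 ended on the other side of the threshold in 1 of them, eBayes with trend and robust (-0.70, 1 member called). For the settings below, the cause of a move was not tested. Over all genes, 9 calls became 0 under quantile normalization, with no filter on dim probes, with scan day as a fixed block and with a replicate block, 5 with a fixed slide block (in which water 1 and NTA 2 alone carry the comparison), 20 under normexp, 38 under eBayes with trend and robust, and 0 to 5 when 1 array was left out (5 without NTA 2, otherwise 0). Members with an unadjusted p under 0.05 numbered 9 under quantile normalization, and with 1 array left out from 2 (without water 3 or without NTA 1) to 6 (without NTA 3). The share of all genes at that p is not given for these settings, so these counts are not read as a result about the members. The replicate block changed no call of a member. Members lower with no overlap numbered 11 under quantile normalization and 5 under normexp, against 7. Hydrolases numbered 9 and 2 in these settings, against 5. The share of all genes lower with no overlap was 9.79% under quantile normalization and 7.19% under normexp, against 7.23%. The hydrolase median was -0.16 under quantile normalization. The median of membrane proteins was -0.081 under quantile normalization, -0.11 under normexp, 0.049 with the slide block, and -0.078 to 0.0071 with 1 array left out. That of the autophagy genes was 0.055 with the slide block and -0.048 to 0.032 with 1 array left out, and Tfeb was at 0.12 when its probes were averaged, against -0.10 under the slide block. No alternative moved the median of all genes by more than 0.1.

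Signs of uncalled members close to 0 turned in several settings. Under quantile normalization Map1lc3a stood at -0.013, Gabarap at -0.038, Gabarapl1 at -0.098 and Ulk1 at -0.032. Under normexp Npc1 stood at 0.0074, Mcoln1 at -0.024, Map1lc3a at -0.0032, Gabarapl1 at -0.11, Ulk1 at -0.010 and Wipi1 at -0.045. With the mean of all probes Glb1 stood at 0.00062, Npc1 at 0.047, Map1lc3a at -0.00021, Map1lc3b at 0.029, Gabarapl1 at -0.024, Ulk1 at -0.076 and Wipi1 at -0.018. With slide as a fixed block Ctsa stood at 0.026, Ctss at -0.40, Ctsz at -0.36, Npc2 at -0.067, Lamp1 at 0.049, Scarb2 at 0.078, Tfeb at -0.10, Map1lc3b at 0.11, Gabarapl1 at -0.12, Gabarapl2 at 0.11, Atg7 at 0.013 and Ulk1 at -0.19. With 1 array left out the ranges were -0.028 to 0.38 (Ctss), -0.070 to 0.29 (Ctsz), -0.097 to 0.012 (Glb1), -0.085 to 0.037 (Lamp1), -0.18 to 0.064 (Scarb2), -0.082 to 0.091 (Npc1), -0.049 to 0.047 (Tfeb), -0.0052 to 0.098 (Map1lc3a), -0.048 to 0.041 (Map1lc3b), -0.049 to 0.074 (Gabarap), -0.041 to 0.064 (Gabarapl1), -0.063 to 0.0065 (Gabarapl2), -0.15 to 0.039 (Becn1), -0.00090 to 0.13 (Atg5), -0.087 to 0.12 (Atg7), -0.030 to 0.063 (Ulk1) and -0.073 to 0.14 (Wipi1).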
